A study of Mus musculus with 48 samples.

Results

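The double-positive cells of the E3.75 inner cell mass (ICM) were defined as cells with at least 50 CPM (counts of a gene per 1000000 counts of its cell) of both Nanog and Gata6, and 20 of the 48 sequenced cells met this rule. They were thus chosen by their measured Nanog and Gata6, and their branches by the variable genes of the same cells. Of these, 10 lay on the branch of prospective epiblast (pEPI) cells and 10 on the branch of prospective primitive endoderm (pPrE) cells in the study's dendrogram of variable genes. All 48 were untreated single ICM cells of mouse embryos from natural mating between PDGFRa::H2B-GFP/+ mice, which carry a nuclear reporter at Pdgfra, and C57BL/6JxCBA/J F1 hybrids. The series names the ICMs as PDGFRa::H2B-GFP/+ and the sample names as WT. They were dissociated from ICMs freed of trophectoderm by immunosurgery and sequenced by Smart-seq2, a full-length protocol without molecular identifiers. The methods give 3 embryos, and the labels do not tell these apart, so the 48 cells were treated as 1 sample.

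In the blastocyst, cells with NANOG, a transcription factor of the pluripotent epiblast, and cells with GATA6, a transcription factor of the primitive endoderm, arise intermingled from ICM cells that hold both. Epiblast progenitors secrete FGF4, and its receptors FGFR1 and FGFR2 act through ERK to hold down Nanog and to favour the endoderm program. Primitive endoderm cells then express a series of transcription factors, among them GATA4, SOX17 and SOX7, together with the platelet-derived growth factor receptor PDGFRA, and they lay down a basement membrane of laminin and type IV collagen.

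The question was which lineage genes already differed between pEPI and pPrE cells while Nanog and Gata6 were both still present. Because the branches were drawn by the study from the expression of these same cells, a difference between the branches is a description of the cells and not a test. No p-value or standard error was computed, since cells of 1 sample are not replicates, and the spread is given as the lowest, median and highest cell. The cells outside the rule served as a comparison: 15 pEPI cells held Nanog alone at the minimum (Nanog-only), 12 pPrE cells held Gata6 alone (Gata6-only), and 1 pPrE cell, well A1, held Nanog alone with 748 CPM of Nanog and 19.8 CPM of Gata6.

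The share of double-positive cells was 40% of the 25 pEPI cells (95% exact binomial interval 21.1 to 61.3%) and 43.5% of the 23 pPrE cells (23.2 to 65.5%), with intervals that cover counting error only and treat cells as independent draws. Just inside the rule were wells E1 and D5 with 59.2 and 59.9 CPM of Nanog and wells F3 and B2 with 56.5 and 56.8 CPM of Gata6. Just outside were well E6 with 46.1 CPM of Nanog and wells A7 and F4, each with 38.5 CPM of Gata6. Total counts ranged from 2052874 to 5097574 in the double-positive pEPI cells and from 1718970 to 5638680 in the double-positive pPrE cells, and between 9202 and 11547 genes had a count in each. Mitochondrial genes took 5.99 to 8.96% and 4.48 to 9.82% of the counts.

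**Figure D1:**
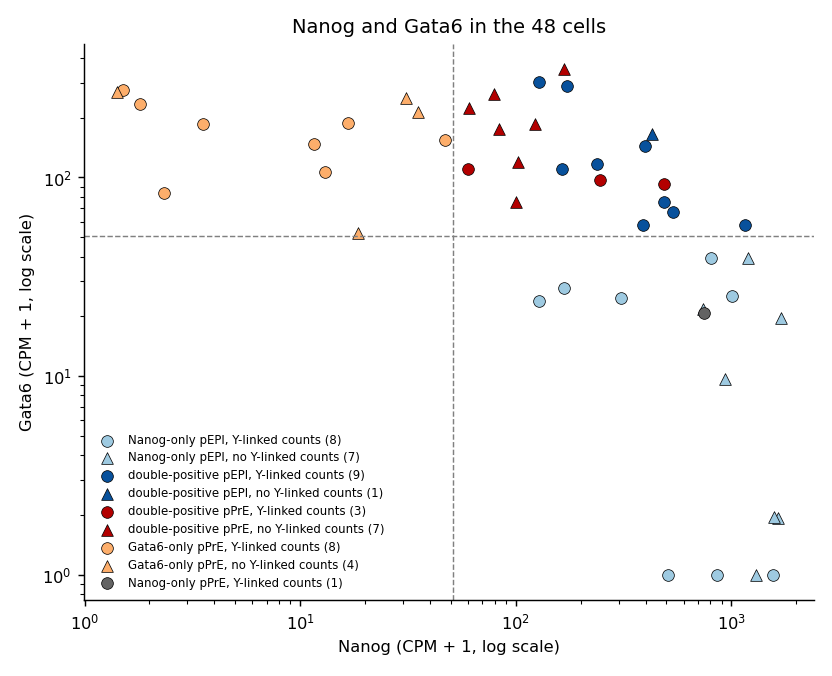
Nanog (x axis) and Gata6 (y axis) in CPM + 1 on log scales in each of the 48 cells, coloured by class, with dashed lines at the minimum of 50 CPM and with triangles for cells without Y-linked counts. The 20 double-positive cells fill the upper right corner, where 9 of 10 pEPI but 3 of 10 pPrE cells have Y-linked counts.

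The branches of the double-positive cells also differed in a property that is not of either lineage. Summed over Uty, Kdm5d, Ddx3y and Eif2s3y, 4 genes of the Y chromosome, at least 100 counts were found in 9 of 10 pEPI but in 3 of 10 pPrE cells, whereas the Nanog-only pEPI cells split 8 with to 7 without and the Gata6-only pPrE cells 8 with to 4 without. Xist, the RNA that coats the inactive X chromosome, ran from 0 to 277 CPM with a median of 0 in double-positive pEPI cells, and from 0 to 467 CPM with a median of 135 in double-positive pPrE cells. Sex, embryo and branch therefore cannot be fully told apart in these 20 cells, and their parts in the differences below were not tested. For this reason the log2 ratio among the cells with Y-linked counts (9 pEPI against 3 pPrE cells) is given beside each main result, and for some genes also the ratio among wells that share a letter: B (2 against 2), D (1 against 4) and E (5 against 1). The labels do not say what a well letter stands for.

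Nanog and Gata6, which chose the cells, were still overlapping between the branches. Nanog was 128 to 1160 CPM (median 392) in pEPI and 59.2 to 488 CPM (median 99.9) in pPrE cells. Gata6 was 56.5 to 303 CPM (median 113) in pEPI and 74.1 to 350 CPM (median 146) in pPrE cells. As log2 ratios of the mean CPM + 1, pPrE over pEPI, these gaps were −1.44 and 0.29, while between Gata6-only and Nanog-only cells they were −5.98 and 3.49. Across the 20 cells Nanog and Gata6 had a Pearson r of −0.56 and a Spearman rho of −0.51 over cells of 1 sample, both restricted by the rule itself.

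Over all genes, 6609 had a mean of at least 20 CPM in the double-positive cells of either branch. Of these, 484 were 2-fold or more higher in pPrE (7.32%) and 472 were 2-fold or more higher in pEPI cells (7.14%). Among the cells with Y-linked counts, 234 of the 484 (3.54% of all genes) and 326 of the 472 (4.93% of all genes) were again 2-fold or more apart in the same direction, and 69 and 11 of them had the opposite sign. Values without any overlap between the 10 pEPI and 10 pPrE cells were found for 2 genes higher in pPrE (0.0303%) and 6 genes higher in pEPI (0.0908%). These shares are the background for the counts of lineage genes that follow, and the median log2 ratio of all 6609 genes was 0.07.

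The transcription factors of the primitive endoderm were already split between the branches. Of 9 listed factors 7 passed the minimum level, and 6 of these 7 were 2-fold or more higher in pPrE cells (against 7.32% of all genes) and none in pEPI cells (against 7.14%). Their median log2 ratio was 2.48, against 4.21 between Gata6-only and Nanog-only cells, and 1.42 among cells with Y-linked counts.

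Foxq1, a forkhead transcription factor, was the factor that parted most completely. It was 0 to 7.74 CPM (median 0) in double-positive pEPI and 12.3 to 213 CPM (median 49.1) in double-positive pPrE cells, so every pPrE cell was above every pEPI cell. The log2 ratio was 5.27, and it was 2.74 among cells with Y-linked counts and 3.74, 7.10 and 2.26 within the wells of letters B, D and E. The 3 pPrE cells with Y-linked counts (B3, B8 and E1) had 12.4, 12.3 and 12.4 CPM, the lowest values of the branch, and the highest pEPI value was that of well E7. Foxq1 lies on chromosome 13 from 31556134 to 31560976 (mm10, plus strand), and its summed count was 37 in pEPI and 2562 in pPrE cells.

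Gata4, a zinc finger factor of the endoderm, was 0 to 212 CPM (median 0.538) in pEPI and 39.7 to 398 CPM (median 182) in pPrE cells. At least 10 CPM was reached by 10 of 10 pPrE but by 2 of 10 pEPI cells, wells E7 and E5 with 212 and 156 CPM, which also held the most Gata6 of the pEPI cells (287 and 303 CPM). The log2 ratio was 2.33, with 1.86 among cells with Y-linked counts, and without well E7 it was 3.32. Creb3l2, a transcription factor of the secretory pathway, was 0 to 83.3 CPM (median 15.9) in pEPI and 10.3 to 209 CPM (median 88.0) in pPrE cells (log2 ratio 2.07, 1.85 with Y-linked counts). Foxq1, Gata4 and Creb3l2 were thus higher in pPrE with and without the Y-linked classes mixed, and Foxq1 was the only one of them whose branches did not overlap.

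Sox17 and Sox7 behaved otherwise. Sox17 was 0 to 133 CPM (median 40.5) in pEPI and 0 to 569 CPM (median 224) in pPrE cells, a log2 ratio of 2.48, but among cells with Y-linked counts the ratio was 0.21. There the 3 pPrE cells had 35.6, 0 and 129.8 CPM of Sox17, within the range of the pEPI cells. Sox7 had no count in any of the 10 pEPI cells, and its mean CPM was at least 408-fold higher in pPrE cells (a bound against 3 counts over the pEPI cells). Such a bound covers counting error only and not the spread between cells. However, 2 of 10 pPrE cells reached 10 CPM and well C6 held 94.7% of the counts. The pPrE branch was also graded. As a mean of log2(CPM + 1) over the 9 listed factors, the 3 pPrE cells with Y-linked counts lay between 2.69 and 3.78 and the 7 without between 3.94 and 6.44, while the 10 pEPI cells lay between 0.963 and 2.99.

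**Figure D2:**
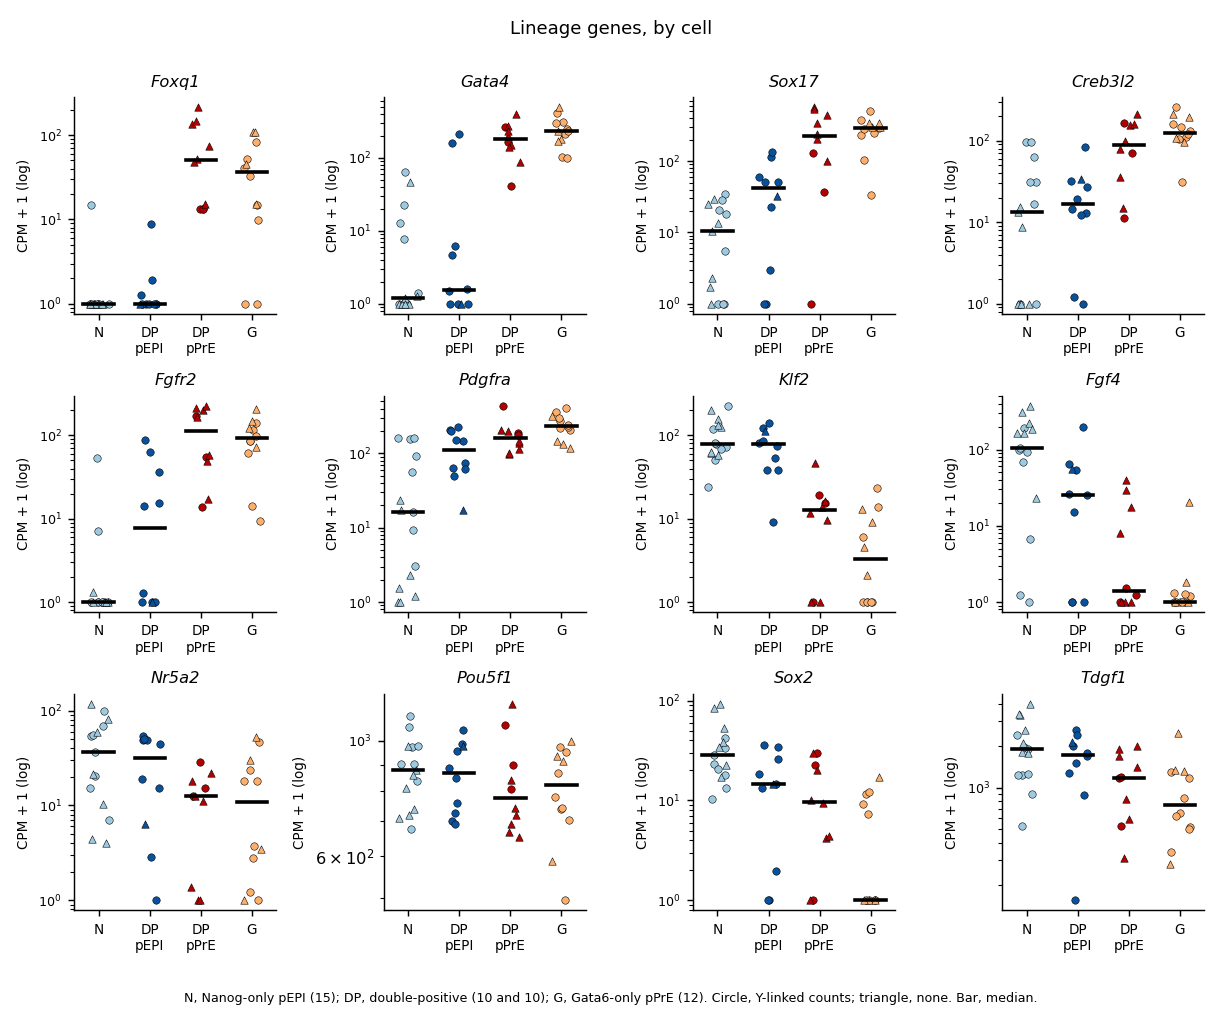
CPM + 1 on a log scale for 12 lineage genes in Nanog-only pEPI (N, 15 cells), double-positive pEPI and pPrE (DP, 10 cells each) and Gata6-only pPrE cells (G, 12 cells), each point a cell, each bar a median, with triangles for cells without Y-linked counts. Foxq1 has no overlap between the double-positive branches, whereas Pdgfra, Pou5f1, Sox2 and Tdgf1 overlap over most of their range.

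The receptors of the FGF and PDGF pathways did not move together. Fgfr2, the FGF receptor that is known to mark primitive endoderm progenitors, was 0 to 86.6 CPM (median 6.71) in pEPI and 12.9 to 227 CPM (median 111) in pPrE cells. Its log2 ratio was 2.40 (1.69 among cells with Y-linked counts), but −0.35 in the wells of letter B, where the pEPI well B2 held 86.6 CPM. Fgfr3 had no count in the pEPI cells and reached 10 CPM in 6 of 10 pPrE cells, at least 586-fold higher by mean CPM (the same bound as for Sox7). Fgfr1, the receptor that both lineages use, was 17.5 to 130 CPM (median 103) in pEPI and 0 to 154 CPM (median 57.8) in pPrE cells, a log2 ratio of −0.47. Of the 5 listed receptors and ligands above the minimum level, 2 were 2-fold or more higher in pPrE and none in pEPI cells.

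Pdgfra, whose locus drives the study's reporter, had a smaller gap than Fgfr2 over all double-positive cells. It was 16.2 to 225 CPM (median 109) in pEPI and 95.7 to 441 CPM (median 161) in pPrE cells, a log2 ratio of 0.60 against 2.39 between Gata6-only and Nanog-only cells, whose medians were 235 and 15.5 CPM. Among cells with Y-linked counts the ratio of Pdgfra was 1.04, past 2-fold, and in the wells of letter B it was 1.07, where that of Fgfr2 was −0.35, so the order of both receptors turned there. When each pPrE cell was set against each pEPI cell, Pdgfra was higher in the pPrE cell in 67.0% of the pairs and Fgfr2 in 86.0%. On a scale where the mean of Nanog-only pEPI cells is 0% and that of Gata6-only pPrE cells is 100% (in log2 of the mean CPM + 1), Pdgfra stood at 56.6% in double-positive pEPI and at 81.8% in double-positive pPrE cells. Gata6 itself, which the rule used, stood at 89.2 and 97.4% on this scale, and Nanog at 20.6 and 44.7%.

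On the same scale the primitive endoderm factors that were higher in Gata6-only cells ranged from near Pdgfra to fully split. Foxq1 stood at −0.725% in double-positive pEPI and 117% in double-positive pPrE cells, so the mean of each branch was near that of its resolved class. The pPrE cells with Y-linked counts, wells B3, B8 and E1, were lower, with 12.3 to 12.4 CPM against a median of 35.9 CPM in Gata6-only cells. Gata4 stood at 40.4 and 92.0%, Sox17 at 41.8 and 97.7%, and Fgfr2 at 50.5 and 106%. Over the 6 listed primitive endoderm factors that were 2-fold or more higher in Gata6-only cells, the medians were −2.29 and 101%, and all 6 were also 2-fold or more higher in double-positive pPrE cells. Another listed factor, Hnf4a, was higher in Nanog-only cells (log2 ratio −3.75). Between the double-positive branches Hnf4a had 0.82, and it stood at 38.3 and 16.4%. Over all 356 genes with such a gap in the resolved cells, 145 were 2-fold or more apart in the same direction in double-positive cells, 201 were less than 2-fold apart and 10 were 2-fold or more apart in the other direction, with medians of 28.2 and 81.2%.

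The pluripotency factors gave few differences. Of 14 listed naive and epiblast transcription factors 12 passed the minimum level, 2 were 2-fold or more higher in pPrE (Sall4 among them) and 2 in pEPI cells (Klf2 and Nr5a2), and their median log2 ratio was −0.21 in double-positive and −0.23 between the resolved classes. Pou5f1, which encodes OCT4, was 692 to 1046 CPM in pEPI and 653 to 1176 CPM in pPrE cells, a log2 ratio of −0.05. Esrrb and Klf4, both naive pluripotency factors, had log2 ratios of −0.24 and −0.30 and overlapping values.

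Klf2, a Krüppel-like factor of the naive state, was the exception among the pluripotency factors. It was 8.04 to 141 CPM (median 77.1) in pEPI and 0 to 45.9 CPM (median 11.7) in pPrE cells. The log2 ratio was −2.49, with −2.60 among cells with Y-linked counts and −3.47, −2.67 and −1.78 within letters B, D and E. The median of double-positive pEPI cells was near that of Nanog-only cells (78.8 CPM), and Klf2 stood at 10.4% in double-positive pEPI and 72.8% in double-positive pPrE cells on the scale between the resolved classes. Nr5a2, a nuclear receptor that activates Pou5f1, was 0 to 52.9 CPM (median 30.8) in pEPI and 0 to 28 CPM (median 11.5) in pPrE cells (log2 ratio −1.23, −0.74 with Y-linked counts, 0.76 in letter D).

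Other epiblast genes were apart in the resolved classes but little apart in the double-positive cells. Sox2, the partner of OCT4, had a log2 ratio of −2.73 between Gata6-only and Nanog-only cells and −0.28 between the double-positive branches, with medians of 13.7 CPM in pEPI and 8.68 CPM in pPrE cells, below the minimum level. Prdm14, a repressor of FGF signalling in pluripotent cells, had −5.60 and −0.88, with medians of 1.72 and 0 CPM. It was also below the minimum level in the double-positive cells, where its highest value was 107 CPM in the pEPI well E3. Tdgf1, the co-receptor of Nodal, had −1.10 and −0.50, and Utf1, a chromatin protein of pluripotent cells, had −1.39 and −0.27. Over all 509 genes that were 2-fold or more higher in Nanog-only cells, 179 were also 2-fold or more higher in double-positive pEPI cells, 303 were less than 2-fold apart and 27 were 2-fold or more apart in the other direction.

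Fgf4, the ligand made by epiblast progenitors, was 0 to 194 CPM (median 24.7) in double-positive pEPI and 0 to 39.4 CPM (median 0.384) in double-positive pPrE cells. At least 10 CPM was found in 7 of 10 pEPI and 3 of 10 pPrE cells, so the branches overlapped although the log2 ratio was −2.09 (−5.09 among cells with Y-linked counts). With a minimum of 100 CPM for Nanog and Gata6, which left 6 pEPI and 3 pPrE cells, the ratio of Fgf4 was 0.65. Nanog-only cells had a median of 104 CPM, above the double-positive pEPI cells, and Gata6-only cells had a median of 0 CPM.

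Genes downstream of ERK were not ordered by branch. Of 13 listed targets and feedback genes 7 passed the minimum level, with 1 higher in pPrE (Dusp4), 1 higher in pEPI (Dusp6) and a median log2 ratio of −0.36. Dusp4, a nuclear ERK phosphatase, was 0 to 127 CPM (median 14.7) in pEPI and 7.56 to 161 CPM (median 74.5) in pPrE cells (log2 ratio 1.24), but −0.25 among cells with Y-linked counts. Dusp6, a cytoplasmic ERK phosphatase, was 0 to 204 CPM (median 55.2) in pEPI and 0 to 85.0 CPM (median 23.9) in pPrE cells (−1.52, and −0.42 with Y-linked counts). Etv5, an ETS factor induced by FGF, was 123 to 410 CPM (median 210) in pEPI and 5.55 to 292 CPM (median 100) in pPrE cells, a log2 ratio of −0.94 and −0.93 with Y-linked counts. Spry2, a feedback inhibitor of receptor tyrosine kinases, had medians of 501 and 492 CPM.

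The genes of the basement membrane were also higher in double-positive pPrE cells, by a smaller median gap than the endoderm factors. All 15 listed genes passed the minimum level, 11 were 2-fold or more higher in pPrE (against 7.32% of all genes) and none in pEPI cells, and the median log2 ratio was 1.68 against 2.23 between the resolved classes and 0.77 among cells with Y-linked counts. Lama1, Lamb1 and Lamc1 encode the chains of laminin-111. Lama1 was 0 to 140 CPM (median 23.9) in pEPI and 43.4 to 637 CPM (median 251) in pPrE cells, Lamb1 was 66.2 to 550 CPM (median 172) and 297 to 1127 CPM (median 643), and Lamc1 was 1.12 to 203 CPM (median 40.9) and 120 to 547 CPM (median 307). The log2 ratios were 2.67, 1.49 and 2.37, and 1.95, 1.5 and 1.91 among cells with Y-linked counts, so all 3 chains were higher in pPrE within that class too.

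The gap of type IV collagen shrank more than that of laminin among the cells with Y-linked counts. Col4a1 was 37.4 to 142 CPM (median 52.2) in pEPI and 46.2 to 382 CPM (median 179) in pPrE cells (log2 ratio 1.60), but the 3 pPrE cells with Y-linked counts had 62.9, 46.2 and 62.5 CPM and the ratio there was −0.20. For Col4a2 the ratio was 2.25, and 0.35 with Y-linked counts. Serpinh1, the collagen chaperone of the endoplasmic reticulum, was 0 to 147 CPM (median 27.1) in pEPI and 62.4 to 814 CPM (median 482) in pPrE cells (3.25, 2.25 with Y-linked counts), but −0.16 in the wells of letter B. Sparc, a collagen-binding matrix protein, was 153 to 617 CPM (median 288) and 432 to 2460 CPM (median 798), with ratios of 1.68 and 1.13. Hspg2, which encodes perlecan, was 0 to 12.4 CPM (median 0) in pEPI and 0 to 250 CPM (median 36.6) in pPrE cells, with ratios of 4.87 and 2.77.

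Not every basement membrane gene followed. Nid1, which links laminin to collagen, had medians of 202 and 135 CPM and a log2 ratio of −0.62, and Lama5 had −0.11. Plod2, a lysyl hydroxylase of collagen, was 2.51 between the resolved classes but 0.22 in double-positive cells, where the medians were 113 CPM in pEPI and 148 CPM in pPrE cells against 27.3 CPM in Nanog-only cells. Nid2 was 2.69 in double-positive cells but −1.45 between the resolved classes. Of the 11 listed genes that were 2-fold or more higher in Gata6-only cells, 10 were also 2-fold or more higher in double-positive pPrE cells and Plod2 was not, and the medians of the 11 on the scale between the resolved classes were 19.4% in double-positive pEPI and 102% in double-positive pPrE cells.

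**Figure D3:**
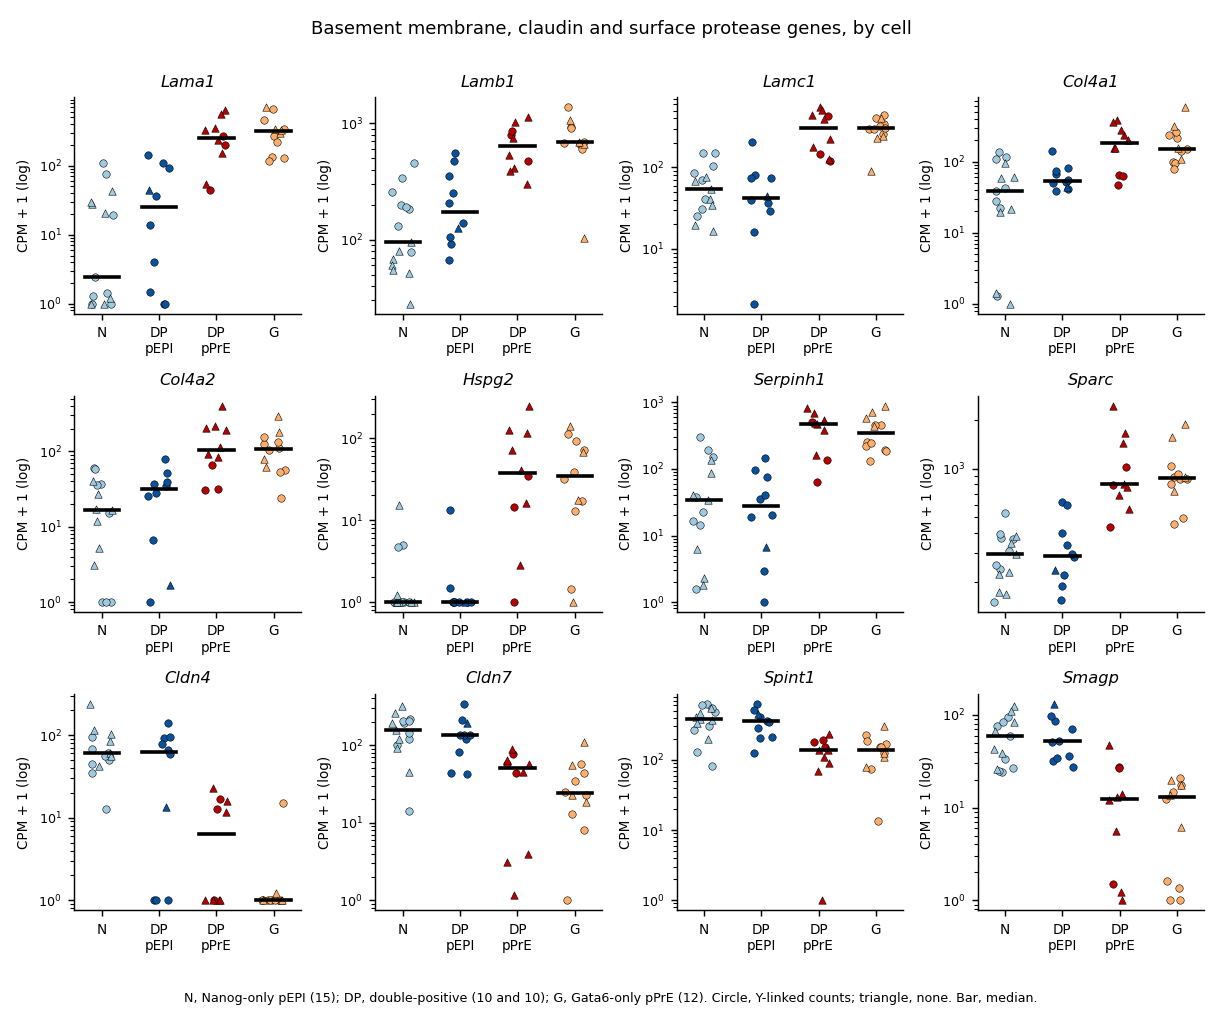
CPM + 1 on a log scale for 8 basement membrane genes and 4 claudin and surface protease genes in Nanog-only pEPI (N, 15 cells), double-positive pEPI and pPrE (DP, 10 cells each) and Gata6-only pPrE cells (G, 12 cells), each point a cell, each bar a median, with triangles for cells without Y-linked counts. The laminin chains, Serpinh1 and Sparc are higher in double-positive pPrE, Cldn7, Spint1 and Smagp in double-positive pEPI cells, and the pPrE cells with Y-linked counts have the lower values of Col4a1.

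The opposite direction was held by genes of the epithelial surface. Of 10 listed claudin, keratin and surface protease genes 7 passed the minimum level, and 5 of these 7 were 2-fold or more higher in pEPI (against 7.14% of all genes) and none in pPrE cells. Their median log2 ratio was −1.44, with −1.98 between the resolved classes and −1.20 among cells with Y-linked counts. Smagp, a small transmembrane adhesion glycoprotein, was 26.5 to 131 CPM (median 50.8) in pEPI and 0 to 46.1 CPM (median 11.5) in pPrE cells, with pPrE higher in 5% of the pairs (log2 ratio −2.05, −1.55 with Y-linked counts). Spint1, an inhibitor of the membrane protease matriptase, was 125 to 631 CPM (median 355) and 0 to 236 CPM (median 136), with −1.44 and −0.96.

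The tight junction genes and the protease itself overlapped more. Cldn7 was 41.4 to 339 CPM (median 134) in pEPI and 0.177 to 89.2 CPM (median 50.4) in pPrE cells (−1.69), with 0.50 in the wells of letter B. Cldn4 was 0 to 140 CPM (median 61.4) and 0 to 22.1 CPM (median 5.29), a ratio of −2.68. St14, which encodes matriptase, was 16.4 to 103 CPM (median 63.8) and 0 to 83.3 CPM (median 12.4), with −1.11. The 6 genes of this list that were 2-fold or more higher in Nanog-only cells were all 2-fold or more higher in double-positive pEPI cells, with medians of 7.75 and 81.7% on the scale between the resolved classes. Among them, Cldn6 was below the minimum level in the double-positive cells, where only well F3 had a count (32.6 CPM).

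Cadherins and linkers of the cortex gave smaller gaps. Of 8 listed genes 7 passed the minimum level, 1 was 2-fold or more higher in pEPI and none in pPrE cells, and the median log2 ratio was −0.30. Cdh1, which encodes E-cadherin, had medians of 261 CPM in pEPI and 352 CPM in pPrE cells and a log2 ratio of 0.29. Cdh2, which encodes N-cadherin, was 22.8 to 59.1 CPM (median 37.9) in pEPI and 0 to 61.9 CPM (median 9.41) in pPrE cells, with a log2 ratio of −1.26 in double-positive cells and 0.12 between the resolved classes.

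Few of the uptake genes of the endoderm passed the minimum level. Of 9 listed genes 4 passed the minimum level, with 2 higher in pPrE (Amn and Apoe) and a median log2 ratio of 1.08, which was 0.16 among cells with Y-linked counts. Amn, the partner of cubilin, had no count in pEPI and reached 10 CPM in 6 of 10 pPrE cells. It was at least 829-fold higher by mean CPM (the same bound as for Sox7), but it had no count in the 3 pPrE cells with Y-linked counts. Apoe, the lipid-carrying apolipoprotein E, was 63.8 to 447 CPM (median 248) in pEPI and 195 to 1053 CPM (median 588) in pPrE cells, with a log2 ratio of 1.27 and 0.31 among cells with Y-linked counts. Cubn, which encodes cubilin, was 0 to 138 CPM (median 16.5) in pEPI and 15.7 to 140 CPM (median 62.9) in pPrE cells, a log2 ratio of 0.88 against 2.73 between the resolved classes.

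Some genes of the epiblast lists had a larger gap in the double-positive than in the resolved cells, and toward pPrE. Dnmt3b, a DNA methyltransferase of the epiblast, was 14.5 to 96.2 CPM (median 64.1) in pEPI and 44.6 to 1853 CPM (median 472) in pPrE cells (3.25, but 0.42 with Y-linked counts). Lefty2, a Nodal inhibitor, had no count in pEPI cells and was at least 509-fold higher by mean CPM in pPrE cells (the same bound as for Sox7). It had no count in any cell with Y-linked counts, of either branch or any class. Among the resolved classes Lefty2 was higher in Nanog-only cells (log2 ratio −2.41). Lefty1 had 4.71 and −3.52, with well C6 holding 92.8% of the pPrE counts of Lefty1.

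**Figure D4:**
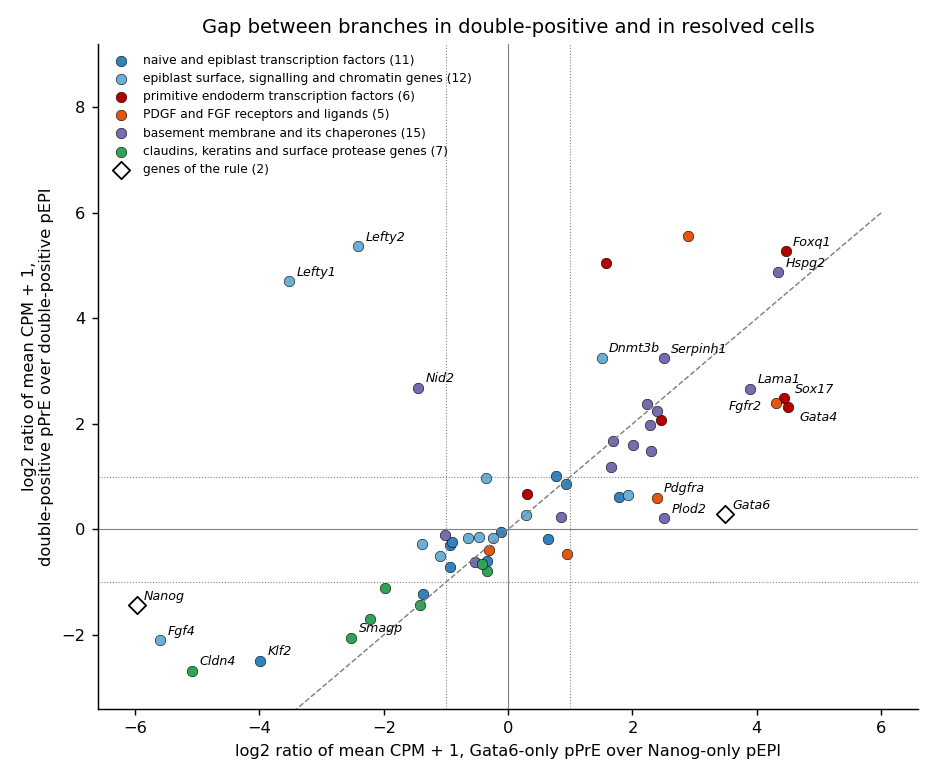
Log2 ratio of mean CPM + 1 between Gata6-only pPrE and Nanog-only pEPI cells (x axis) and between double-positive pPrE and pEPI cells (y axis) for genes of 6 lists that are above the minimum level and reported here, each point a gene, with dotted lines at 2-fold and a dashed line where both gaps are equal. Foxq1 and Hspg2 lie above the dashed line and Gata4 and Sox17 below it, all past 2-fold, whereas Pdgfra, Plod2 and the rule's gene Gata6 lie under 2-fold on the y axis.

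The 24 genes named by the size of the split, 12 in each direction by the share of pairs of cells, were led in pPrE by Foxq1 and Cpn1. Cpn1, the catalytic chain of carboxypeptidase N, was 30.1 to 177 CPM (median 63.8) in pEPI and 182 to 481 CPM (median 279) in pPrE cells, without overlap. Its log2 ratio was 1.99, 2.14 among cells with Y-linked counts and 2.04, 2.17 and 2.41 within letters B, D and E, and leaving out any 1 cell kept it between 1.90 and 2.22. Cpn1 lies on chromosome 19 from 43956307 to 43986556 (mm10, minus strand). Efna4, an ephrin ligand, was 0 to 18.5 CPM (median 0) in pEPI and 13.1 to 103 CPM (median 49.5) in pPrE cells (3.19), and Ctsl, the lysosomal protease cathepsin L, was 470 to 939 CPM (median 607) and 848 to 3289 CPM (median 1931), with a log2 ratio of 1.53. Ckap4, a protein of endoplasmic reticulum sheets, had 3.06 but 0.03 in the wells of letter B, and Vta1 and Gfm1 had 1.37 and 1.03 in double-positive cells and −0.29 and 0.25 between the resolved classes.

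In pEPI the leading genes were Gm13102, Pdp2, Tmem41b, Gm6223, Ppm1a and Ctsd, none of which overlapped between the branches. Pdp2, a phosphatase that activates pyruvate dehydrogenase, was 100 to 442 CPM (median 236) in pEPI and 0 to 78.3 CPM (median 20.5) in pPrE cells, a log2 ratio of −3.01 (−3.29 with Y-linked counts). Tmem41b, a lipid scramblase of the endoplasmic reticulum, was 548 to 2679 CPM (median 999) and 82.6 to 465 CPM (median 163), with −2.37 and −2.10. Pdp2 and Tmem41b kept similar gaps between the resolved classes, −2.15 and −2.18. Gm13102 and the processed pseudogene Gm6223 may share reads with near-identical copies elsewhere, so their counts are uncertain.

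Other pEPI genes were split more in the double-positive than in the resolved cells. Ppm1a, a protein phosphatase, had a log2 ratio of −2.04 and −0.79, Ctsd, which encodes cathepsin D, had −1.02 and −0.28, and Gulo, an enzyme of vitamin C synthesis, had −2.90 and −0.58. Dhcr7, an enzyme of cholesterol synthesis, had −3.31 and −2.15. Gja1, which encodes the gap junction protein connexin 43, was 1054 to 2215 CPM (median 1440) in pEPI and 297 to 1130 CPM (median 557) in pPrE cells, with −1.22 and −1.15 and with pPrE higher in 1% of the pairs.

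Promoters of the 24 named genes were read as the 250 bases before the start in RefSeq (GRCm38.p6), and 18 genes had an entry. The letters GATAA on either strand (TTATC on the other), the core that GATA factors bind, were in 1 of 10 promoters of genes higher in pPrE and 3 of 8 of genes higher in pEPI cells, against 22.9% of all 26742 promoters and 14.5% of the 5196 promoters of genes above the minimum level. The octamer ATTTGCAT, which POU factors bind, was in none of the 18 and in 1.63% of all promoters. A match is a description of the letters in this window and not a site. Efna4 and Serpinh1 are shown as genes higher in pPrE and Gja1 as a gene higher in pEPI, with GATAA or TTATC in capitals. They lie at chr3:89338029-89338278 (minus strand), chr7:99353240-99353489 (minus strand) and chr10:56377050-56377299 (plus strand).
Efna4: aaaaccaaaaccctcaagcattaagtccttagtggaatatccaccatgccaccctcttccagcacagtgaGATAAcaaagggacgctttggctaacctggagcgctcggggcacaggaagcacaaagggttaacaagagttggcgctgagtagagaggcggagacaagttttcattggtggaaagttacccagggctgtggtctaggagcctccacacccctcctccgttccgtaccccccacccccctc
Serpinh1: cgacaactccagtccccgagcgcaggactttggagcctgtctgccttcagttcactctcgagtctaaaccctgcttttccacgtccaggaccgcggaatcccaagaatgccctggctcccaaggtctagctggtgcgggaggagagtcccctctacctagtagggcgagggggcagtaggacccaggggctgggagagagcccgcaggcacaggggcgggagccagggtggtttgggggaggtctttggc
Gja1: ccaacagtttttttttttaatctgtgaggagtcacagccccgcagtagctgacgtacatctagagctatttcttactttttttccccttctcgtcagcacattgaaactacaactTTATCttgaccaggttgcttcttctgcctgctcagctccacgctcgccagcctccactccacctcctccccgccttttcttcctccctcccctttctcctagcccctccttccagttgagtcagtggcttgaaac

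The list levels can also be set against the ratio of Nanog to Gata6, the genes that chose the cells, so these values are a description that in part restates the difference between the branches. Across the 20 double-positive cells the log2 ratio of Nanog over Gata6 had a Pearson r of −0.68 (Spearman rho −0.72) with the mean level of the 9 primitive endoderm factors and −0.63 (−0.63) with that of the 15 basement membrane genes, and 0.13 (0.12) with the 14 naive and epiblast factors, a list that does not hold Nanog. Within the 10 pEPI cells alone r was −0.54, −0.44 and −0.05 (rho −0.53, −0.45 and 0.02), and within the 10 pPrE cells −0.55, −0.39 and 0.11 (rho −0.47, −0.13 and 0.18). The order of the pPrE cells along this ratio was thus weak for the basement membrane genes. These are descriptions over cells that share 3 embryos, depth and the class of Y-linked counts.

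**Figure D5:**
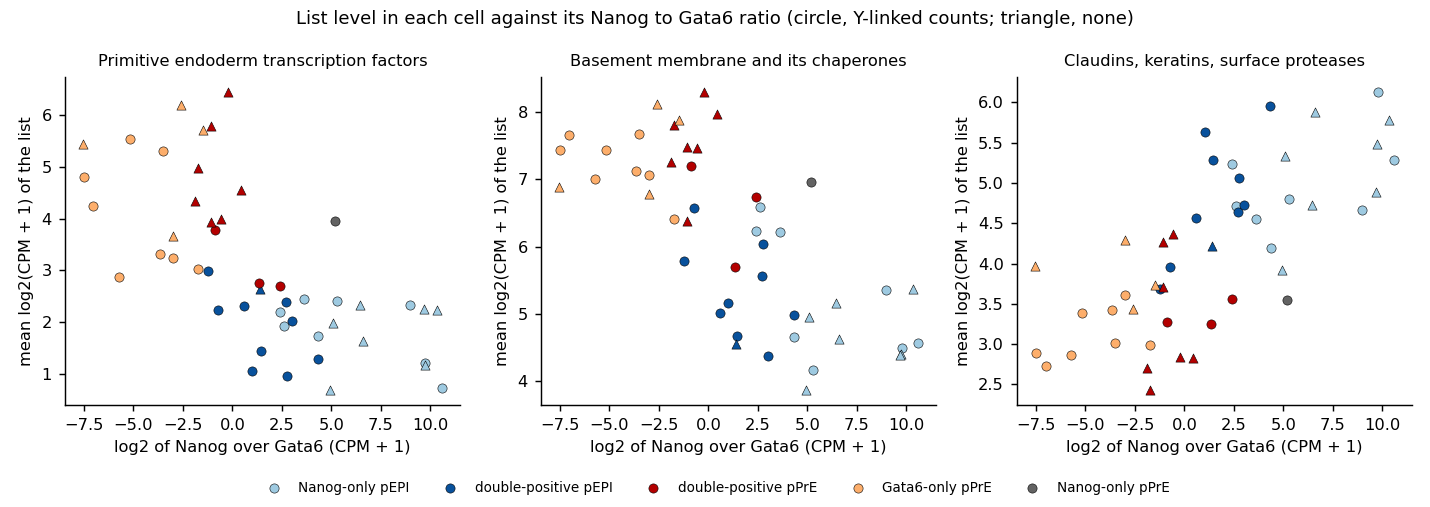
Mean log2(CPM + 1) of a gene list in each cell (y axis) against the log2 ratio of Nanog over Gata6 in CPM + 1 (x axis), for the primitive endoderm factors, the basement membrane genes and the claudin, keratin and surface protease genes, coloured by class, with triangles for cells without Y-linked counts. Double-positive pPrE cells lie at the level of Gata6-only pPrE cells and double-positive pEPI cells near Nanog-only pEPI cells, with the pPrE cells that have Y-linked counts the closest to pEPI in the first panel.

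The comparison at shared levels of Nanog rested on few cells. Both branches had cells between 128 and 488 CPM of Nanog, 8 pEPI and 3 pPrE cells, and there Nanog had a log2 ratio of 0.00. In this range Foxq1 had 4.81, Cpn1 1.83, Gata4 1.60, Fgfr2 1.51, Lamc1 1.73, Serpinh1 2.67, Klf2 −1.62 and Smagp −2.57, whereas Sox17 had −0.25 and Col4a1 0.41. The ratios of Foxq1, Serpinh1 and Fgfr2 rested mostly on well D7, which has no Y-linked counts. In wells B3, B8 and D7 Foxq1 was 12.4, 12.3 and 147 CPM and Serpinh1 62.4, 137 and 814 CPM. Fgfr2 was 12.9, 54.5 and 165 CPM in these wells. Cpn1 was more even, with 230, 336 and 282 CPM. Of the 6609 genes above the minimum level, 484 were higher in pPrE and 472 in pEPI. Of these, 59 and 105 kept their direction within letters B, D and E and were also 2-fold or more apart among cells with Y-linked counts and between the resolved classes. These criteria are not independent, because the 3 pPrE cells with Y-linked counts are the pPrE cells of letters B and E. The lists, of 120 genes, contributed Foxq1, Gata4, Creb3l2, Lama1, Lamb1, Lamc1, Hspg2 and Sparc to the 59 and Klf2, Fgf4, Cldn4 and Smagp to the 105.

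Markers of trophectoderm, the cells removed by immunosurgery, were low in both branches. Of 9 listed markers 1, Id2, passed the minimum level, Krt7 and Ascl2 had no count in any double-positive cell, and the markers summed to a median of 16 CPM in pEPI cells (range 0.451 to 69.7) and of 17.1 CPM in pPrE cells (range 0 to 208). Of 6 genes of the formative epiblast, 1 (Dnmt3a) passed the minimum level. It was 0 to 160 CPM (median 59.0) in pEPI and 27.4 to 321 CPM (median 99.9) in pPrE cells, a log2 ratio of 1.04 against 3.42 between the resolved classes.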

How the data were processed

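Single cells of E3.75 ICMs were sequenced by Smart-seq2. The deposited values were whole-number read counts of 49671 Ensembl 87 genes in 48 cells, which the authors made with htseq-count from alignments to mm10 (STAR is named in the submitters' processing notes) after dropping libraries with under 500000 mapped reads, with skewed gene bodies or apart by PCA. Smart-seq2 has no molecular identifiers, so intervals cover counting error only. Counts were divided by the column total and multiplied to CPM. Symbols came from a table of gene names, and 345 identifiers (0.0146% of counts) had none. pEPI and pPrE wells follow the branches of the study's dendrogram, since the labels give no lineage. Genes were kept at a mean of 20 CPM or more in the double-positive cells of either branch; log2 ratios used the mean CPM with a pseudocount of 1. Named genes were those of the 12 fixed lists and the 12 in each direction among genes past 2-fold with the most extreme share of pairs of cells. Some list genes count in the totals but are not reported here by name. Coordinates came from GENCODE M21, promoters from RefSeq. The members, lists and tests were chosen with earlier results of these data known. With all cells in 1 sample no test was run, and the ratio scripts were tested on simulated data. Alternatives were other minimums, library sizes, filters and pseudocounts, thinned cells, medians, Y-linked classes and cells or well letters left out. The shared range of Nanog, single cells left out and single letters were chosen after seeing the data. The scripts ran under Python 3.11.15 with pandas 2.3.3 and numpy 2.4.6, the intervals came from scipy 1.17.1 and the plots from matplotlib 3.10.9.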

Additional observations from a re-analysis of the deposited data

How the results depend on the processing

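No paired analysis was possible because all cells form 1 group and no test was run. With 20 cells of 3 embryos and 1718970 to 5638680 counts each, low genes rest on few cells, and the branches were drawn from the same expression. A minimum of 100 CPM left 6 pEPI and 3 pPrE cells, with 848 genes 2-fold or more higher in pPrE, and 207 and 121 without overlap (higher in pPrE and in pEPI); a minimum of 25 CPM gave 1 and 2 without overlap, and library sizes by the median of ratios gave 1 higher in pPrE. Filtering at 5 CPM gave 1046 and 1050 genes past 2-fold, no filter 1956 and 2016, and a pseudocount of 10 CPM 281 and 299, as more or fewer low genes then count. Among cells with Y-linked counts 781 genes were 2-fold or more higher in pEPI, and 56 and 50 did not overlap; among those without (1 pEPI against 7 pPrE cells) 1468 and 988 were past 2-fold and 734 and 1031 did not overlap. Fewer cells overlap less by construction.

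The median log2 ratios (2.48, 1.68, 1.08, 0.60, −0.30 and −0.36 for the primitive endoderm factors, basement membrane, endocytic, receptor, cadherin and ERK lists) moved as follows, and the causes were not tested. Primitive endoderm factors had 1.42 with and 5.48 without Y-linked counts and 0.88 in the shared range of Nanog. Basement membrane genes had 0.77 and 2.83, with 0.30 within letter B and 2.53 within D. Endocytic genes had 0.16 and 5.44, 2.31 at 100 CPM, 0.20 in the shared range, and −0.12, 4.15 and −0.15 within letters B, D and E, so their direction did not hold. Receptors and ligands had 3.06 without Y-linked counts and 0.00 and 2.99 within B and D. ERK genes had −1.60 within E. Cadherins had −0.85 at 100 CPM, −0.79 in the shared range, and −0.73 and 0.17 within B and D.

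Leaving out 1 cell or 1 well letter gave 405 to 685 and 438 to 715 genes past 2-fold, 2 to 19 and 5 to 46 without overlap, and medians of 2.03 to 5.13 (primitive endoderm factors), 0.35 to 1.09 (receptors) and −0.73 to 0.22 (ERK genes); the highest came without letter B for the ERK genes and otherwise without letter E, which holds 5 pEPI cells. Of 78 single genes run, 14 reversed under at least 1 of the other settings and none when a cell or letter was left out. Fgf4 reversed at 100 CPM (0.65), Dusp4 and Col4a1 among cells with Y-linked counts (−0.25 and −0.20), Nr5a2 among cells without (0.61), and Nanog and Sox17 in the shared range of Nanog (0.0019 and −0.25). Within letter B, Nanog (0.23), Fgfr2 (−0.35), Serpinh1 (−0.16), P4ha2 (−0.10), Apoe (−0.25), Cldn7 (0.50) and Dnmt3a (−0.21) reversed, within D Nr5a2 (0.76), and within E Dusp4 (−2.76), Col4a1 (−0.16), St14 (0.67) and Lefty1 (−1.78).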

Other observations

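Genes that set both double-positive branches apart from both resolved classes were few. Only Elf2, an ETS factor, was 2-fold or more higher in the mean of both double-positive branches than in both resolved classes, with medians of 17.9 CPM in double-positive pEPI and 34.3 CPM in double-positive pPrE cells against 10.5 CPM in Nanog-only and 9.08 CPM in Gata6-only cells, and double-positive cells were higher in 70.2% of the pairs. Tiam2, Paip2b and Piwil2 were 2-fold or more lower, and double-positive cells were higher in 40.9, 32 and 30.8% of the pairs. Tiam2 encodes an exchange factor of Rac, and Piwil2 a protein of the piRNA pathway. All 4 genes were close to the minimum level, with means between 5.18 and 46.8 CPM in the classes.

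Well A1, placed on the pPrE branch, held 748 CPM of Nanog and 19.8 CPM of Gata6. It had 58.7 CPM of Foxq1, 73.7 CPM of Gata4, 231 CPM of Cpn1, 132 CPM of Fgfr2 and 337 CPM of Serpinh1, each within the range of the double-positive pPrE cells. Its Klf2 (32.7 CPM) and Smagp (16.2 CPM) also lay within that range. Some other named genes did not. Efna4 (0 CPM), Ckap4 (13.3 CPM), Vta1 (67.0 CPM) and Gja1 (137 CPM) lay below it. Ctsd (654 CPM), Ppm1a (309 CPM), Tmem41b (510 CPM) and Fgf4 (52.5 CPM) lay above it.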
